A study of Mus musculus with 12 samples.

Results

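The messenger RNAs of the Regnase, tristetraprolin (TTP) and Roquin families and of *Arid5a* were followed in thioglycollate-elicited peritoneal exudate cells (PECs), the macrophage-rich cells that gather in the mouse peritoneal cavity after an irritant is injected. The members were taken by gene symbol from a list of 10 names, and 9 of them have a row among the 12850 genes of the deposited table: *Zc3h12a*, *Zc3h12c*, *Zc3h12d*, *Zfp36*, *Zfp36l1*, *Zfp36l2*, *Rc3h1*, *Rc3h2* and *Arid5a*. *Zc3h12b* has no row and was not analysed here. The cells came from WT mice of strain C57BL/6 and from *Zc3h12a* S513A/S513A knock-in mice (S513A below), which were made by genome editing of C57BL/6J eggs. The ages of the mice are not given in the sources used here. Cells of each genotype were left without LPS (0 hr) or were stimulated with LPS (lipopolysaccharide of bacterial outer membranes, 100 ng/ml) during 4 or 8 hr. Each of these 6 groups is represented by 2 polyA RNA libraries, 12 in all. Nothing in the sources says that replicates came from separate mice, so the p values below measure only the spread between these libraries, which may be technical. Because the knock-in changes every cell of the mouse and the exudate is a mixed population, fewer cells of a type and less RNA per cell cannot be told apart.

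Regnase-1, the product of *Zc3h12a*, is an endoribonuclease that cuts inflammatory mRNAs at stem-loops, and the Zc3h12 paralogs share its RNase domain. TTP (*Zfp36*) and its paralogs bind AU-rich elements, short AU motifs at the 3′ ends of mRNAs, and recruit the CCR4-NOT deadenylase, while Roquin-1 and Roquin-2 (*Rc3h1*, *Rc3h2*) bind stem-loops and recruit the same deadenylase. ARID5A works in the opposite direction by binding stem-loops of *Il6* mRNA and protecting it from decay. In macrophages this machinery limits how long cytokine mRNAs last after a Toll-like receptor is triggered, and TTP and Regnase-1 are themselves controlled by phosphorylation. The S513A change removes a serine of Regnase-1 whose phosphorylation is needed for binding of 14-3-3 proteins.

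The codon of the serine that S513A replaces lies in exon 6 of 6 of the longest annotated *Zc3h12a* transcript, at chr4:125119531-125119533 of GRCm38 on the minus strand, and is shown within 27 bases of coding sequence (chr4:125119519-125119545, codon in capitals) because its change defines the genotype groups. The deposited values count reads per gene and do not show the edited base.
Zc3h12a serine codon: agagagtactggTCTgagccgtaccca
AU-rich sites are shown next because the TTP family binds such sequences and its own genes carry them. The core TATTTAT was searched on the mRNA strand in the 3′ untranslated region of the longest coding transcript, overlaps allowed, and 6 of the 9 members hold at least 1 match. Over 11200 tested genes with a coding transcript the share with a match was 29.8%. *Zfp36* holds 3 matches in 774 bases, and among 1479 genes with a region of similar length (within 1.25 times) 0.879% hold as many. *Zfp36l1* and *Zfp36l2* hold 3 matches each, in 1835 and 1822 bases, and the share of genes of similar length with as many is 3.58% and 3.54%. *Rc3h2* holds 3 matches and *Rc3h1* and *Zc3h12c* 2 each, in much longer regions, where 15.6%, 44.3% and 27.6% of genes of similar length have as many. *Zc3h12a*, *Zc3h12d* and *Arid5a* hold none. The first site of each TTP family gene, with the core in capitals and the coding strand shown 5′ to 3′, lies at chr7:28376966-28376994, chr12:80108422-80108450 and chr17:84184914-84184942 of GRCm38, all on the minus strand.
Zfp36 site: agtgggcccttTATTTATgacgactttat
Zfp36l1 site: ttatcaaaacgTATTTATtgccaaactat
Zfp36l2 site: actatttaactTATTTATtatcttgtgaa

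Promoters were read from RefSeq windows (GRCm38.p6) of 250 bases before to 50 bases after each start site, which exist for 8 of the 9 members. Both strands were searched for the kappaB consensus, the AP-1 site TGANTCA, the CArG box and TATAAA, which 5.21%, 5.25%, 1.23% and 7.08% of 11919 promoters of tested genes hold. *Zfp36*, which LPS raised, holds a CArG box (the binding element of serum response factor) that begins 58 bases before its start site, in the stretch chr7:28379257-28379306 (minus strand). *Zfp36l1*, which LPS lowered, holds a TATAAA 29 bases before its start site, in the stretch chr12:80113017-80113062 (minus strand), and an AP-1 site 129 bases before it. *Rc3h1* holds an AP-1 site 133 bases before its start site. The windows of *Zc3h12a*, *Zc3h12c* and *Arid5a*, which LPS raised, and of *Zc3h12d* and *Rc3h2* hold none of the motifs searched. The letters of the kappaB consensus are in none of the windows of the members, which says nothing of sites elsewhere. Any part of these motifs in the changes with LPS was not tested. The windows around the first pair of matches are given with the match in capitals.
Zfp36 CArG box: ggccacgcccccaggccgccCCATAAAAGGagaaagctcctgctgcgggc
Zfp36l1 TATAAA: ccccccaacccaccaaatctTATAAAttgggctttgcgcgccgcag

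The deposited values are log2 CPM, the log2 of counts (CPM) scaled to a common library size, and the libraries hold 9525979 to 12439960 reads on listed genes. All 8 macrophage markers are listed, and their summed level was 16753.5 to 27847.1 CPM over the libraries. Of the neutrophil markers, 3 of 6 are listed, and their summed level was 154 to 173 CPM at 0 hr, 299 to 381 CPM at 4 hr and 489 to 600 CPM at 8 hr. Defining neutrophil markers *Ly6g*, *S100a9* and *Cxcr2* have no row. Summed levels of the other lists were 9.90 to 25.7 CPM for B cell (5 of 6 listed), 1.05 to 2.55 CPM for T cell (2 of 7), 3.68 to 18.7 CPM for eosinophil (3 of 6), 1.58 to 3.64 CPM for mast cell (4 of 6), 13.4 to 53.3 CPM for mesothelial or fibroblast (5 of 6) and 2.19 to 10.3 CPM for dendritic cell markers (4 of 6), while none of the 6 erythroid markers is listed. Neutrophil and dendritic cell sums were higher and eosinophil sums lower with time in LPS. Single genes weigh heavily in these sums: over the libraries *Mmp9* ranged from 38.0 to 439.7 CPM, *Csf3r* from 67.9 to 128.3 CPM and *S100a8* from 20.2 to 106.3 CPM, and *Ccr7* of the dendritic cell list from 0.839 to 7.44 CPM. In the eosinophil list *Siglecf* ranged from 2.93 to 18.3 CPM, while *Ccr3* and *Ear2* reached at most 0.735 and 0.616 CPM. The sums are levels of RNA and not counts of cells, and their part in the results below was not tested. In WT at 4 hr, replicate 2 was higher than replicate 1 for 9 of the 9 members (median difference 0.54 on the log2 scale, against -0.01 over all tested genes). In S513A at 4 hr replicate 2 was higher for 1 of the 9 (median difference -0.35, against -0.04 over all tested genes), so results at 4 hr are given also without these libraries where that changes a call.

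LPS split the regulators into those that rose and those that fell. At 4 hr against 0 hr, averaged over the genotypes, *Zc3h12c*, *Zc3h12a*, *Arid5a*, *Zfp36* and *Rc3h1* rose and *Zfp36l1*, *Zc3h12d* and *Zfp36l2* fell, while *Rc3h2* did not pass the test. The test was limma with Benjamini-Hochberg adjustment over 11885 genes at a threshold of 0.05, and it called 5 members higher and 3 lower, where 29.1% of all tested genes were higher and 26.7% lower. At 8 hr against 0 hr it called 4 members higher (24.5% of all genes) and 4 lower (21.6%), and at 8 hr against 4 hr 2 higher (12.8%) and 4 lower (12.8%). The median change of the members at 4 hr was 0.35, against 0.02 over all tested genes, and at 8 hr -0.08 against -0.0007. For 7 members the 4 libraries of 4 hr lay wholly above or below the 4 of 0 hr, as they did for 49.1% of all tested genes. For 8 hr against 0 hr this held for 6 members (43.7% of genes), and for 8 hr against 4 hr for 4 members (23.6%).

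**Figure D1:**
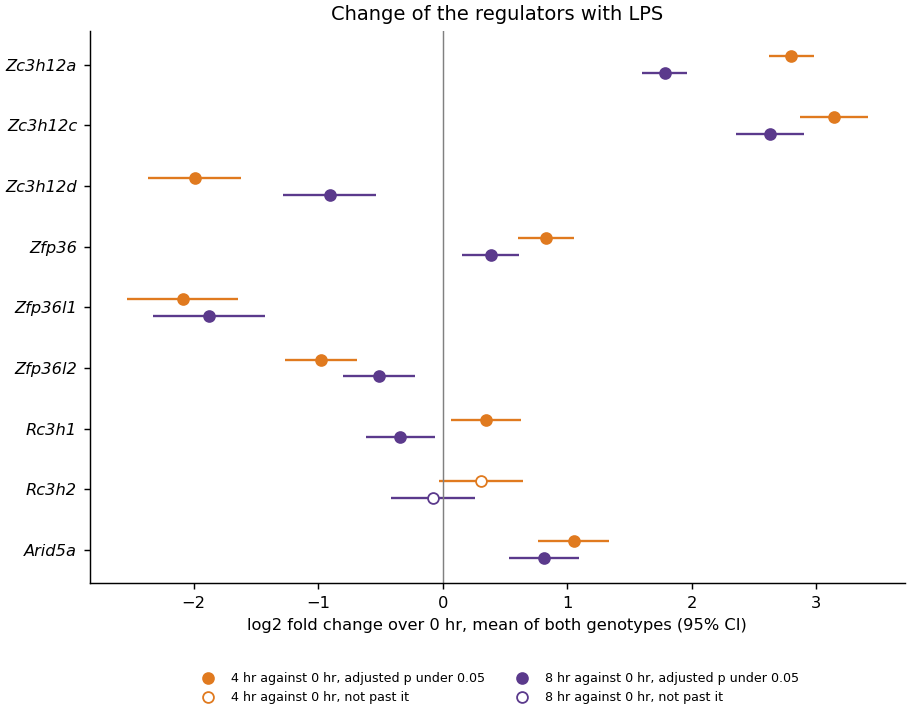
Log2 fold change of each member at 4 and 8 hr of LPS against 0 hr, averaged over the genotypes, with 95% confidence intervals from limma; filled points passed an adjusted p of 0.05. *Zc3h12a* and *Zc3h12c* lie far to the right at both times, *Zfp36l1* and *Zc3h12d* to the left, and the Roquin genes near 0.

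Within the Regnase family the paralogs parted. *Zc3h12a* (chr4:125118423-125127840, minus strand) encodes Regnase-1 itself. *Zc3h12a* in WT stood at a log2 CPM of 5.39 and 5.20 without LPS, of 7.90 and 8.11 after 4 hr, and of 6.89 and 6.80 after 8 hr. *Zc3h12a* in S513A stood at 4.99 and 5.09, then 7.98 and 7.87, then 7.11 and 6.99 in the same order. No library of any time point overlapped another time point, with 362 to 600 reads per library at 0 hr and 2010 to 3007 at 4 hr. The level rose 6.96-fold by 4 hr (log2 2.80, SE 0.08, adjusted p = 6.19e-10) and then fell by 1.02 on the log2 scale between 4 and 8 hr (adjusted p = 1.91e-05), which left it 3.44-fold above 0 hr (adjusted p = 2.51e-08). Among tested genes, 2.68% had a larger log2 change at 4 hr.

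*Zc3h12c* (chr9:52111344-52168572, minus strand) encodes Regnase-3, a paralog known in macrophages. *Zc3h12c* in WT stood at a log2 CPM of 4.85 and 5.03 without LPS, of 7.94 and 8.53 after 4 hr, and of 7.54 and 7.43 after 8 hr. *Zc3h12c* in S513A stood at 4.95 and 5.10, then 8.08 and 7.93, then 7.83 and 7.63 in the same order. The libraries of each time point were again apart from those of the others, with 8 hr close below 4 hr. *Zc3h12c* rose 8.81-fold by 4 hr (log2 3.14, SE 0.12, adjusted p = 5.25e-09), stood 6.17-fold above 0 hr at 8 hr (adjusted p = 2.85e-08) and fell by 0.51 on the log2 scale from 4 to 8 hr (adjusted p = 0.0111). By genotype that last change was -0.75 in WT (adjusted p = 0.0166) and -0.27 in S513A (adjusted p = 0.28), and their difference was not tested.

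*Zc3h12d* (chr10:7832470-7870396, plus strand) encodes Regnase-4, known mainly from lymphocytes. *Zc3h12d* in WT stood at a log2 CPM of 4.24 and 4.33 without LPS, of 1.83 and 2.38 after 4 hr, and of 3.25 and 3.41 after 8 hr. *Zc3h12d* in S513A stood at 4.17 and 4.01, then 2.64 and 1.92, then 3.19 and 3.26 in the same order. The 4 hr libraries are the lowest and hold 32 to 63 reads each, against 191 to 270 at 0 hr. *Zc3h12d* at 4 hr fell by 1.99 on the log2 scale (SE 0.17, adjusted p = 2.46e-06), rose 2.12-fold between 4 and 8 hr (adjusted p = 0.00105) and at 8 hr was still below 0 hr (log2 -0.91, SE 0.17, adjusted p = 0.00123). Only 2 of 7 T cell markers are listed, without *Cd3e* and *Cd3d*, and they summed to at most 2.55 CPM. The B cell markers summed to 9.90 to 15.8 CPM at 0 hr and 18.9 to 21.9 CPM at 4 hr. In that sum *Ighm* weighs most, with 6.63 to 17.0 CPM over the libraries, while *Ms4a1* reached 3.02 CPM and the others less. What part lymphocytes had in the values of *Zc3h12d* was not tested.

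**Figure D2:**
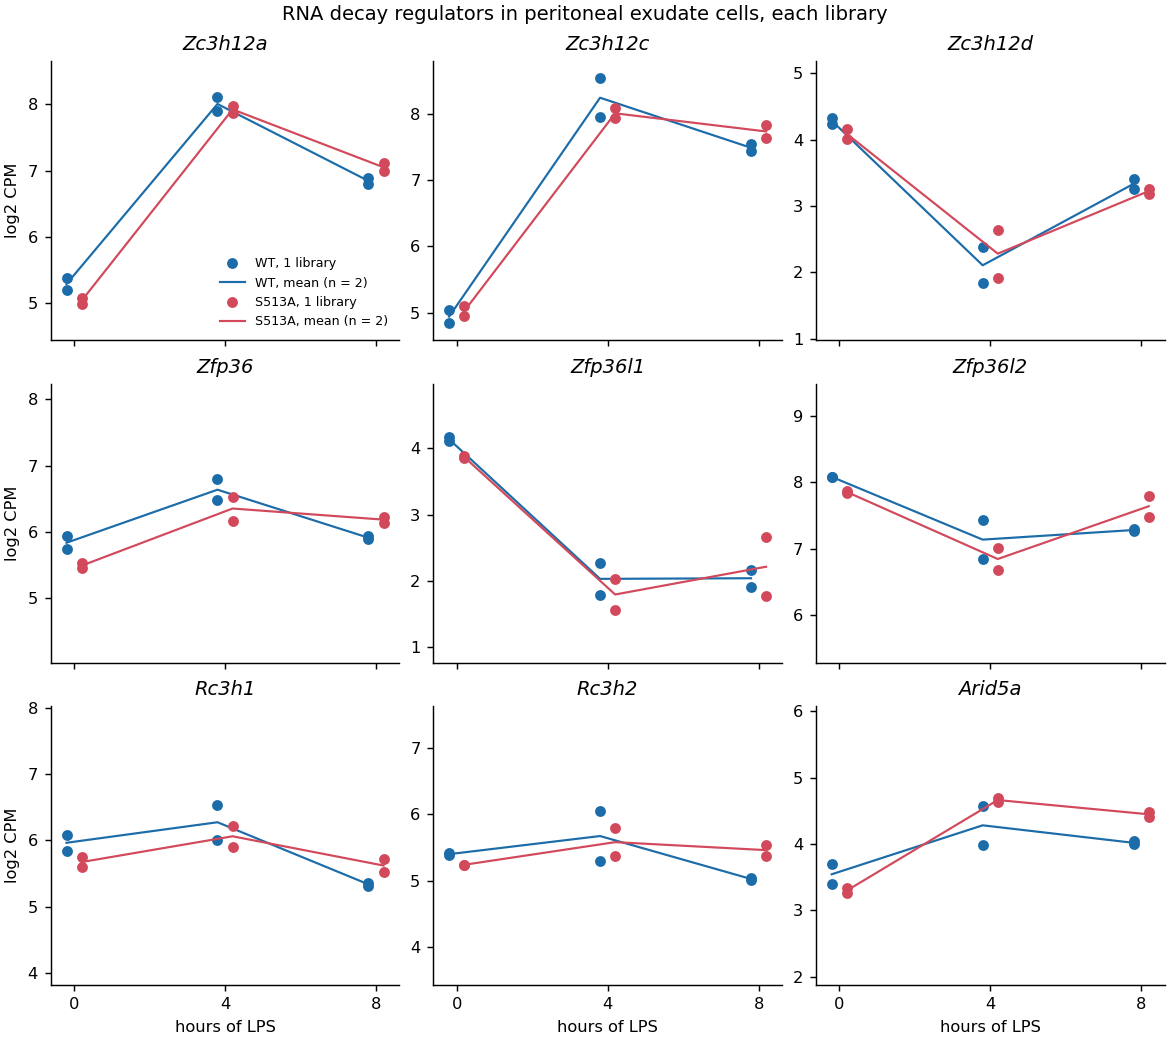
Log2 CPM of each member (y axis, the same span of 4.2 units in every panel) against hours of LPS (x axis), with 1 point per library and a line through the mean of 2 libraries, in blue for WT and red for S513A. *Zc3h12a* and *Zc3h12c* peak at 4 hr, *Zc3h12d* has its lowest values there, and *Zfp36l1* stays low at 8 hr.

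The TTP family moved in opposite directions too. *Zfp36* (chr7:28376784-28380253, minus strand) encodes TTP. *Zfp36* in WT stood at a log2 CPM of 5.93 and 5.74 without LPS, of 6.48 and 6.80 after 4 hr, and of 5.94 and 5.89 after 8 hr. *Zfp36* in S513A stood at 5.45 and 5.53, then 6.53 and 6.17, then 6.23 and 6.14 in the same order. All 4 hr libraries lie above all 0 hr libraries, while those of 8 hr overlap both other times. *Zfp36* rose 1.78-fold at 4 hr (log2 0.83, SE 0.10, adjusted p = 4.81e-05), was 1.31-fold above 0 hr at 8 hr (log2 0.38, SE 0.10, adjusted p = 0.0105) and fell by 0.45 on the log2 scale from 4 to 8 hr (adjusted p = 0.0095). By genotype that last change was -0.72 in WT (adjusted p = 0.0091) and -0.17 in S513A (adjusted p = 0.431), and their difference was not tested. Both averaged calls at 8 hr were lost when the library sizes were used without the normalization factor of the authors, with an adjusted p of 0.163 and 0.0546. That scaling moved the median change of all tested genes to -0.24 at 4 hr and -0.17 at 8 hr, and the share of calls that were higher from 52.2% to 30.9% at 4 hr, from 53.2% to 35.0% at 8 hr and from 50.02% to 66.6% between 4 and 8 hr. Reads were mapped as unstranded and the annotation used for counting is not given. How reads shared by *Zfp36* and the antisense gene *Gm44710* were counted is therefore unknown. The same holds for *AC132455.1* and *Zfp36l2* and for the lincRNA gene *Gm26669* and *Zfp36l1*. It also holds for *Rc3h1*, which 3 genes overlap on its own strand (*Gm37052*, *Gm37653* and *Gm37809*). Genes of microRNAs or snoRNAs overlap *Zc3h12c*, *Zc3h12d* and *Rc3h2*.

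*Zfp36l1* (chr12:80107754-80113013, minus strand), a TTP paralog that binds the same kind of element, was among the members with the fewest reads. *Zfp36l1* in WT stood at a log2 CPM of 4.17 and 4.11 without LPS, of 1.80 and 2.27 after 4 hr, and of 2.17 and 1.91 after 8 hr. *Zfp36l1* in S513A stood at 3.85 and 3.89, then 2.03 and 1.57, then 2.66 and 1.77 in the same order. All LPS libraries lie below all 0 hr libraries, with 25 to 73 reads against 164 to 257. *Zfp36l1* at 4 hr fell by 2.09 on the log2 scale (SE 0.20, adjusted p = 6.84e-06) and by 1.87 at 8 hr (SE 0.20, adjusted p = 2.2e-05), and the difference between 4 and 8 hr was 0.21 with a 95% confidence interval of -0.23 to 0.66.

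*Zfp36l2* (chr17:84183931-84187947, minus strand), the most abundant family member at rest, also fell. *Zfp36l2* in WT stood at a log2 CPM of 8.09 and 8.08 without LPS, of 6.85 and 7.43 after 4 hr, and of 7.27 and 7.29 after 8 hr. *Zfp36l2* in S513A stood at 7.87 and 7.85, then 7.02 and 6.67, then 7.80 and 7.48 in the same order. The 0 hr libraries are above all others, with 1 S513A library of 8 hr close below them. *Zfp36l2* at 4 hr fell by 0.98 on the log2 scale (SE 0.13, adjusted p = 8.33e-05) and by 0.51 at 8 hr (adjusted p = 0.00829), and rose 1.38-fold from 4 to 8 hr (adjusted p = 0.023). Within genotypes that last change was 0.79 in S513A (adjusted p = 0.0158) and 0.14 in WT (adjusted p = 0.637), and their difference was not tested. The averaged call between 4 and 8 hr was lost in a model of only the 4 and 8 hr libraries (adjusted p = 0.065) and without 1 library each of WT 8 hr (replicate 1 or 2), S513A 4 hr (replicate 2) or S513A 8 hr (replicate 1), where adjusted p was 0.0688, 0.0697, 0.086 and 0.0746.

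The Roquin genes had the smallest changes of the members at 4 and at 8 hr against 0 hr. *Rc3h1* (chr1:160906418-160974978, plus strand) encodes Roquin-1. *Rc3h1* in WT stood at a log2 CPM of 5.84 and 6.08 without LPS, of 6.01 and 6.53 after 4 hr, and of 5.32 and 5.36 after 8 hr. *Rc3h1* in S513A stood at 5.75 and 5.60, then 6.22 and 5.90, then 5.72 and 5.52 in the same order. Every 8 hr library lies below every 4 hr library, while the 0 hr libraries overlap both. *Rc3h1* fell by 0.69 on the log2 scale from 4 to 8 hr (SE 0.13, adjusted p = 0.00265). By genotype this change was -0.94 in WT (adjusted p = 0.00692) and -0.44 in S513A (adjusted p = 0.104), and their difference was not tested. The averaged rise of *Rc3h1* at 4 hr (log2 0.35, SE 0.13, adjusted p = 0.0354) and its fall at 8 hr against 0 hr (log2 -0.34, adjusted p = 0.0472) passed the threshold narrowly, and both were lost under other settings. Within genotypes the change at 8 hr against 0 hr was -0.63 in WT (adjusted p = 0.0197) and -0.05 in S513A (adjusted p = 0.841), and the interaction of 0.57 did not pass (adjusted p = 0.239). For the rise, adjusted p was 0.264 with quantile normalization (change 0.17), 0.589 with library sizes alone (0.09), 0.0599 with no trend of the prior and 0.0548 in a model of the 0 and 4 hr libraries alone. It was 0.124 without WT 0 hr replicate 1, 0.108 without WT 4 hr replicate 2, 0.0525 without WT 8 hr replicate 1 or 2, 0.0545 and 0.111 without S513A 0 hr replicate 1 and 2, and 0.125 without S513A 4 hr replicate 1. For the fall at 8 hr, adjusted p was 0.0771 with no trend of the prior. It was 0.0516 and 0.158 without WT 0 hr replicate 1 and 2, 0.116 and 0.0975 without WT 8 hr replicate 1 and 2, 0.143 and 0.0717 without S513A 0 hr replicate 1 and 2, and 0.125 without S513A 8 hr replicate 2.

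*Rc3h2* (chr2:37370069-37422903, minus strand) encodes Roquin-2. *Rc3h2* in WT stood at a log2 CPM of 5.38 and 5.41 without LPS, of 5.29 and 6.05 after 4 hr, and of 5.04 and 5.01 after 8 hr. *Rc3h2* in S513A stood at 5.24 and 5.24, then 5.79 and 5.37, then 5.54 and 5.38 in the same order. The WT libraries of 4 hr are the lowest and the highest of that time point, and all time points overlap. No LPS contrast passed the test for *Rc3h2*: the change at 4 hr was 0.31 (95% confidence interval -0.03 to 0.64, adjusted p = 0.109) and at 8 hr -0.08 (-0.41 to 0.26, adjusted p = 0.715). Without WT 4 hr replicate 1 the change at 4 hr was 0.50 and passed (adjusted p = 0.00251), as did that from 4 to 8 hr (-0.57, adjusted p = 0.00316).

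*Arid5a* (chr1:36307733-36324029, plus strand), whose product protects *Il6* mRNA, rose. *Arid5a* in WT stood at a log2 CPM of 3.69 and 3.39 without LPS, of 3.99 and 4.57 after 4 hr, and of 3.99 and 4.04 after 8 hr. *Arid5a* in S513A stood at 3.33 and 3.26, then 4.63 and 4.69, then 4.41 and 4.48 in the same order. All LPS libraries lie above all 0 hr libraries in both genotypes. *Arid5a* rose 2.07-fold at 4 hr (log2 1.05, SE 0.13, adjusted p = 4.04e-05) and was 1.76-fold above 0 hr at 8 hr (adjusted p = 0.000367). The difference between 8 and 4 hr was -0.24 (adjusted p = 0.205), and -0.38 without WT 4 hr replicate 1 (adjusted p = 0.0188).

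Levels were set against each other per length, as log2 of CPM per kb of annotated exon, which is a level and not a change. At 0 hr the order ran from *Zfp36l2* (6.15 ± 0.13, SD, n = 4 libraries) through *Zfp36* (3.87 ± 0.22), *Zc3h12a* (3.64 ± 0.17), *Zfp36l1* (2.42 ± 0.16), *Rc3h1* (2.32 ± 0.20), *Zc3h12c* (2.21 ± 0.11), *Zc3h12d* (2.15 ± 0.14) and *Rc3h2* (1.02 ± 0.09) to *Arid5a* (-0.23 ± 0.19). The ranges of *Zfp36* and *Zc3h12a* overlapped, as did those of each neighbouring pair from *Zfp36l1* to *Zc3h12d*. At 4 hr *Zc3h12a* led with 6.44 ± 0.11 and overlapped no other gene, followed by *Zc3h12c* (5.35 ± 0.28), *Zfp36l2* (5.17 ± 0.33) and *Zfp36* (4.70 ± 0.26), whose neighbours overlapped. *Zc3h12d* (0.16 ± 0.38) and *Zfp36l1* (0.34 ± 0.30) were then the lowest, with ranges that overlapped that of *Arid5a* (0.82 ± 0.32). At 8 hr *Zfp36l2* (5.64 ± 0.24) and *Zc3h12a* (5.42 ± 0.13) overlapped at the top, above *Zc3h12c* (4.83 ± 0.17) and *Zfp36* (4.25 ± 0.16). The exons of *Rc3h2* and *Arid5a* span 19624 and 12540 bases over all isoforms but 8948 and 5504 in the longest transcript, so their levels per length are uncertain. Those of *Zfp36* span 3470 bases over all isoforms and 2790 in the longest transcript. With the longest transcript, 2 members changed place at 0 hr and 4 at 8 hr, and none at 4 hr. The ranges of *Zfp36* (4.18 ± 0.22) and *Zc3h12a* (3.70 ± 0.17) at 0 hr were then apart.

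**Figure D3:**
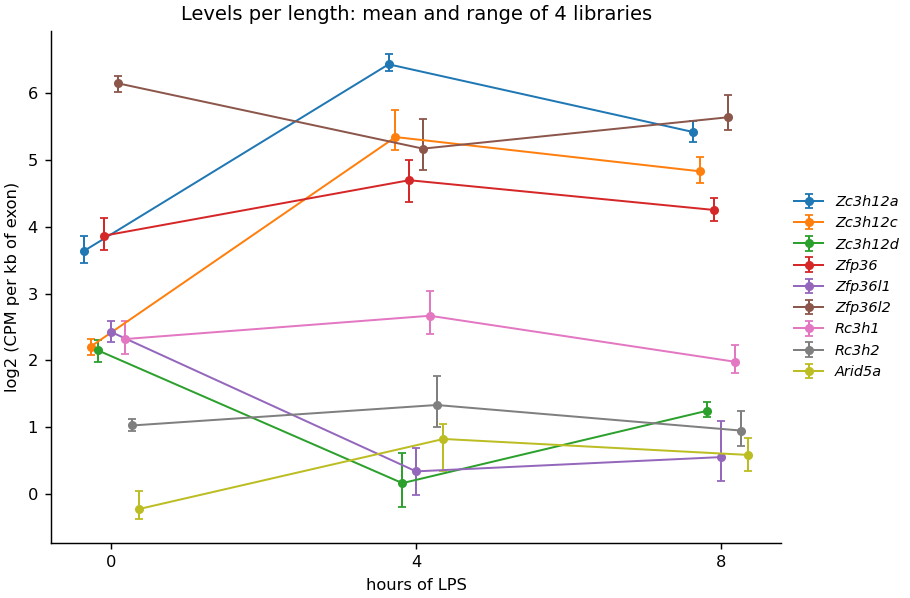
Level of each member per length (log2 of CPM per kb of exon, y axis) at 0, 4 and 8 hr of LPS (x axis), as the mean and the range of 4 libraries of both genotypes, with points shifted sideways for clarity. *Zc3h12a* passes from 3.64 to 6.44 and leads at 4 hr, while *Zfp36l1* and *Zc3h12d* drop to the bottom.

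The make-up of each family, in reads per kb within a library, does not depend on library size. TTP supplied 15.1 to 17.5% of the TTP family's reads per kb at 0 hr, 38.8 to 43.2% at 4 hr and 24.9 to 28.2% at 8 hr, over 4 libraries each. The share therefore rose by 24.99 percentage points at 4 hr and by 11.0 at 8 hr, and fell by 13.98 from 4 to 8 hr. *Zfp36l2* supplied 78.1 ± 1.101% at 0 hr, 57.0 ± 1.82% at 4 hr and 70.8 ± 1.31% at 8 hr (SD, n = 4), and *Zfp36l1* 5.88 ± 0.0888%, 1.97 ± 0.0770% and 2.08 ± 0.403%. In the Regnase family *Zc3h12a* held 57.8 ± 3.02% at 0 hr, 67.4 ± 2.72% at 4 hr and 58.1 ± 0.382% at 8 hr. *Zc3h12c* supplied 21.5 ± 2.60% of that family at 0 hr, 31.7 ± 2.72% at 4 hr and 38.7 ± 0.795% at 8 hr, while *Zc3h12d* supplied 20.6 ± 1.56%, 0.876 ± 0.207% and 3.23 ± 0.517%. *Rc3h1* held 71.0 ± 1.83% of the Roquin reads per kb at 0 hr, 71.6 ± 1.77% at 4 hr and 67.2 ± 1.44% at 8 hr.

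Of 9 comparisons of the shares of *Zfp36*, *Zc3h12a* and *Rc3h1* between times, 7 gave the smallest p that an exact two-sided permutation test of 4 libraries against 4 allows (0.0286, adjusted p = 0.0367 over the 9). The other two were *Zc3h12a* at 8 hr against 0 hr (difference 0.281 percentage points, exact permutation p = 0.943) and *Rc3h1* at 4 hr against 0 hr (0.594 percentage points, exact permutation p = 0.657). Without division by length the *Zc3h12a* share rose by 4.99 points at 4 hr (adjusted p = 0.0643 by the exact permutation test) and its difference at 8 hr against 0 hr was -4.27 (adjusted p = 0.0367). With the longest transcript as the length, a choice made after seeing the data, *Rc3h1* held 53.5 ± 2.22% at 0 hr instead of 71.0%. At 8 hr *Rc3h1* then held 48.9 ± 1.63% instead of 67.2%, and *Rc3h2* 51.1 ± 1.63%. Which Roquin gene held more at 8 hr thus depended on the length used. *Zfp36* held 19.2%, 46.4% and 31.6% of its family at 0, 4 and 8 hr with that length. None of the 9 comparisons changed its direction or its side of the threshold.

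**Figure D4:**
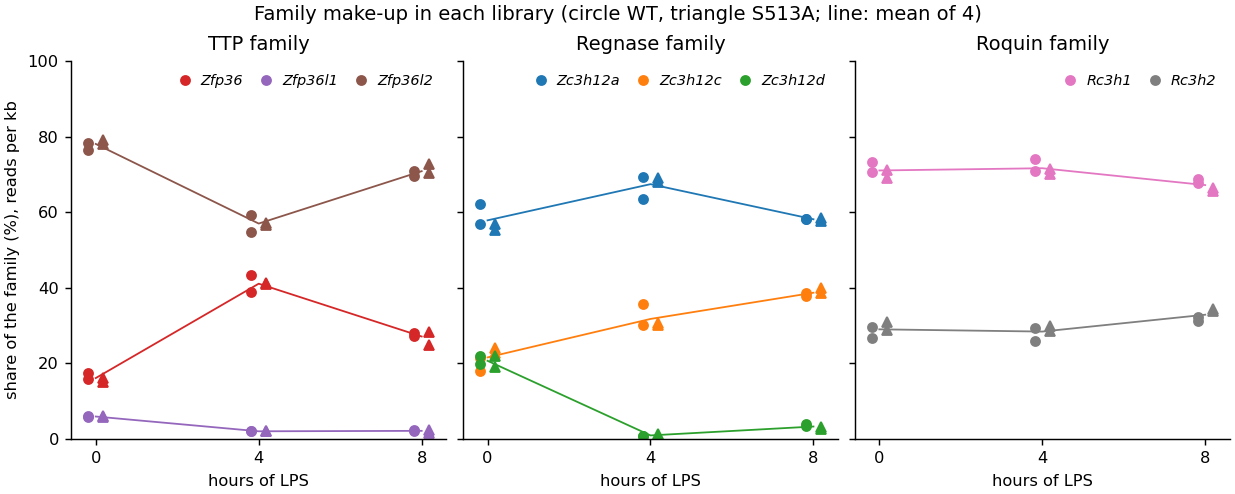
Share of each family's reads per kb supplied by each paralog (%, y axis) against hours of LPS (x axis), with circles for WT and triangles for S513A libraries and lines through the mean of 4. *Zfp36* goes from 16.1% to 41.1% and back to 27.1%, and *Zc3h12d* from 20.6% to 0.876%.

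The genotype comparison asks whether the S513A change in Regnase-1 altered the RNA of the regulators. The paper reports that this change also lowered Regnase-1 protein in PECs given LPS, while *Zc3h12a* mRNA was comparable between the genotypes. No member passed the test between S513A and WT at 0, 4 or 8 hr, where limma called 0.0337%, 0.0168% and 0.0337% of all tested genes, nor in the mean of the 3 time points (0.0673%). At an unadjusted p under 0.05 the members counted were 1 at 0 hr, 0 at 4 hr and 1 at 8 hr, where 949, 833 and 1487 of the 11885 tested genes were counted. At 0 hr 8 of the 9 differences were negative and 1 was positive, where 50.8% of all tested genes were positive. In the gene lists below 2 of 10 nonsense-mediated decay factors and 5 of 16 other RNA-binding regulators were positive. Of exosome and SKI genes 10 of 16 were positive, and of target mRNAs 10 of 15. The counts were 7 of 20 for deadenylation, 9 of 18 for decapping and 9 of 14 for kinase-list genes. The median of the members was -0.25 on the log2 scale against 0.01 over all tested genes. For 8 members the S513A pair lay entirely under the WT pair, as for 27.1% of all genes, and 57.5% of all genes were apart in either direction. The lowest was *Zfp36* (-0.35, 95% confidence interval -0.67 to -0.02, adjusted p = 0.586), followed by *Rc3h1* (-0.29, -0.68 to 0.10, adjusted p = 0.593). *Zc3h12a*, which carries the edit, differed by -0.25 (-0.51 to 0.004, adjusted p = 0.586).

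At 8 hr the differences were positive for 8 of 9 members (51.1% of all tested genes) with a median of 0.27. In the gene lists below they were positive for 15 of 16 other RNA-binding regulators and 12 of 14 kinase-list genes. They were positive for 5 of 16 exosome and SKI genes and 8 of 15 target mRNAs. The counts were 8 of 10 for nonsense-mediated decay, 14 of 20 for deadenylation and 11 of 18 for decapping. The S513A pair exceeded the WT pair entirely for 7 members, as for 27.9% of all genes. The highest were *Rc3h2* (0.43, 95% confidence interval -0.04 to 0.91, adjusted p = 0.406) and *Arid5a* (0.43, 0.03 to 0.83, adjusted p = 0.395), and *Zc3h12a* differed by 0.21 (-0.05 to 0.46, adjusted p = 0.429). At 4 hr 2 members were positive (50.8% of all tested genes) and 7 negative, between -0.29 for *Zfp36l2* and 0.38 for *Arid5a*. Without WT 4 hr replicate 2 the differences of *Zc3h12a*, *Zc3h12c*, *Zfp36l1*, *Zfp36l2*, *Rc3h1* and *Rc3h2* changed sign.

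**Figure D5:**
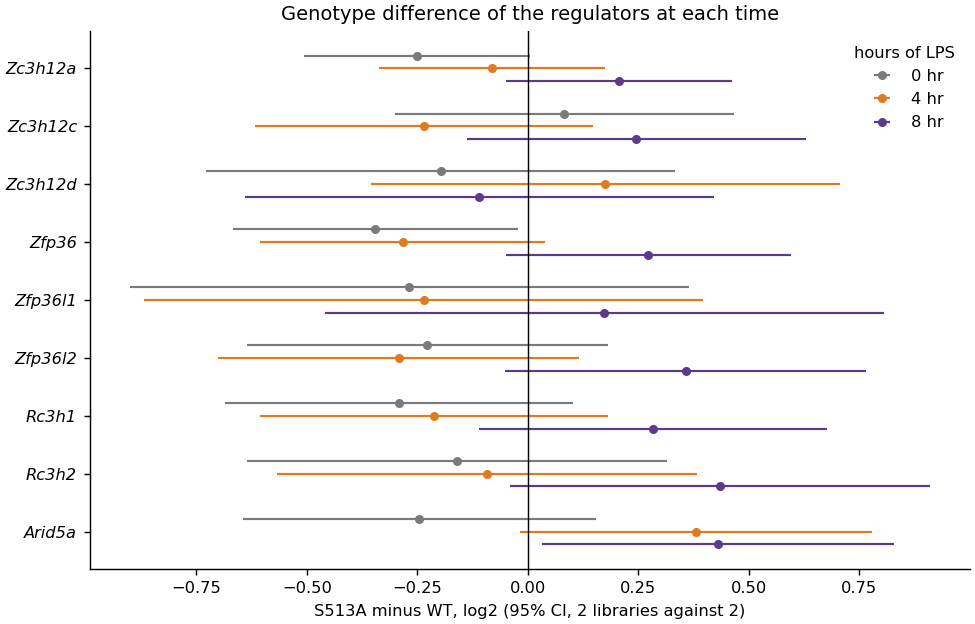
Difference S513A minus WT of each member on the log2 scale (x axis) at 0, 4 and 8 hr of LPS, with 95% confidence intervals from limma, 2 libraries against 2. Most points lie left of 0 at 0 hr and right of 0 at 8 hr, and no difference passed the adjusted threshold.

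The difference between the genotypes in their change with LPS was tested as an interaction. It called 0% of all tested genes at 4 hr and 0% at 8 hr by limma, with 144 and 2405 genes, and 1 and 5 members, at an unadjusted p under 0.05. At 8 hr the interaction was positive for 9 of 9 members and 50.8% of all tested genes, with medians of 0.57 and 0.01. In the gene lists below it was positive for 14 of 16 other RNA-binding regulators and 11 of 14 kinase-list genes. The counts were 8 of 10 for nonsense-mediated decay, 12 of 20 for deadenylation and 11 of 18 for decapping. They were 6 of 16 for exosome and SKI genes and 5 of 15 for target mRNAs. The smallest adjusted p of a member by limma was 0.197 for *Zfp36* (0.62, 95% confidence interval 0.16 to 1.07). *Zfp36* was 1.62-fold above 0 hr at 8 hr in S513A (adjusted p = 0.00353) and 1.05-fold in WT (adjusted p = 0.718). *Rc3h2* libraries of 8 hr lay below those of 0 hr in WT (-0.37, adjusted p = 0.203), whereas in S513A both lay above (0.22, adjusted p = 0.442), with an interaction of 0.59 (-0.08 to 1.27, adjusted p = 0.279). *Arid5a* at 8 hr was 0.47 above 0 hr in WT (adjusted p = 0.0652) and 1.15 in S513A (adjusted p = 0.000548), and *Zfp36l2* was -0.80 in WT (adjusted p = 0.00664) and -0.22 in S513A (adjusted p = 0.381). *Zc3h12a* had risen 2.94-fold in WT and 4.03-fold in S513A by 8 hr (interaction 0.46, adjusted p = 0.2). These values share the 0 hr libraries with the comparisons above, so they are not separate evidence, and in S513A at 8 hr replicate 1 was higher than replicate 2 for 7 of 9 members. The interaction of *Zfp36l1* was 0.44, and -0.0058 without S513A 8 hr replicate 1. With library sizes alone as the scaling, the median over all tested genes was -0.10 for the genotype difference at 0 hr and 0.17 for the interaction at 8 hr.

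The genes that work with these regulators were examined by list, with rises and falls called by limma. Over all tested genes 29.1% rose and 26.7% fell at 4 hr, and 24.5% rose and 21.6% fell at 8 hr. Of 14 genes for kinases, the protease MALT1, ubiquitin ligase components and a phosphatase subunit (*Ppp2ca*) that act on the regulators, 11 rose and 1 fell at 4 hr, and 9 rose and 1 fell at 8 hr, with a median change of 0.64 and 0.39. The protease *Malt1*, which cleaves Regnase-1 and Roquins, rose by 2.87 on the log2 scale at 4 hr (SE 0.10, adjusted p = 1.59e-09), and *Mapkapk2*, the kinase that phosphorylates TTP, by 2.68 (SE 0.08, adjusted p = 5.25e-10), while *Mapkapk3* fell by 0.75 (SE 0.08, adjusted p = 1.89e-05). Of 20 deadenylation genes 8 rose and 4 fell at 4 hr and 1 rose and 4 fell at 8 hr. The antiproliferative deadenylase cofactors *Btg1* (0.94, SE 0.07) and *Btg2* (0.67, SE 0.07) rose at 4 hr, and *Tob1*, which binds CCR4-NOT as well, fell by 1.28 (SE 0.14) and the deadenylase gene *Parn* by 0.86 (SE 0.10).

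Of 18 decapping and 5′ decay genes 6 rose and 0 fell at 4 hr by limma (29.1% and 26.7% of all tested genes). At 8 hr 2 rose and 1 fell (24.5% and 21.6% of all tested genes). The rises at 4 hr were led by the decapping enzyme *Dcp2* (1.80, SE 0.09, adjusted p = 4.53e-08) and the exonuclease *Xrn1* (0.85, SE 0.15, adjusted p = 0.000509). Of 16 exosome and SKI genes 8 rose and 1 fell at 4 hr, among them *Exosc10* (0.60, SE 0.08) and *Exosc2* (0.58, SE 0.12) higher and *Exosc5* (-0.63, SE 0.17) lower, and at 8 hr 4 rose and 1 fell. Of 10 nonsense-mediated decay factors, a list that holds the Regnase-1 partner UPF1, 5 rose and 0 fell at 4 hr and at 8 hr, among them *Smg5* (0.68, SE 0.10), whereas *Upf1* itself was at 0.33 (adjusted p = 0.103). Of 16 other RNA-binding regulators 9 rose and 2 fell at 4 hr, with *N4bp1* (1.29, SE 0.11) and *Cpeb4* (1.25, SE 0.15) highest and *Celf2* (-1.46, SE 0.10) and *Tia1* (-0.38, SE 0.10) lowest, and at 8 hr 6 rose and 2 fell.

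Of 19 textbook target mRNAs of the regulators 16 are listed and 15 were tested. Of these 15 rose at 4 hr and 14 at 8 hr (median change 6.12 and 4.78), where 29.1% and 24.5% of all tested genes rose. Genes that reached 1 CPM only with LPS could enter, and the lists were chosen with earlier results known. The counts for this list are therefore a description and not a test. The largest rises at 4 hr were *Il12b* (8.93, SE 0.14) and *Il6* (8.65, SE 0.43), which encode a subunit of interleukin-12 and interleukin-6. From 4 to 8 hr 11 of the 15 fell (12.8% of all tested genes), and none rose (12.8%). Between genotypes 1 list gene passed when the 3 time points were averaged: *Cxcl2*, a neutrophil chemokine, was higher in S513A by 0.49 on the log2 scale (SE 0.07, adjusted p = 0.0465 by limma). *Cxcl2* passed narrowly and was not followed under the other settings. The authors, whose test is not named, report no transcript past an adjusted p of 0.05 between the genotypes, with or without LPS. They describe no mean over time points. At the single times limma called 4, 2 and 4 of the 11885 tested genes at 0, 4 and 8 hr. No list gene passed at a single time point or in an interaction.

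The genes most like each member over the 12 libraries are given by Pearson's r, as a description of libraries that share 6 conditions. For *Zc3h12a* they were *Dusp16* (0.998), *Nfkbiz* (0.998) and *Lcp2* (0.998), and for *Zfp36* *Zbtb7a* (0.981), *Plcb3* (0.979) and *Maml2* (0.979). The nearest gene was *Fam102b* for *Zc3h12c* (0.996), *Eya1* for *Zc3h12d* (0.987), *Efr3b* for *Zfp36l1* (0.990), *BC005537* for *Zfp36l2* (0.996), *Sel1l* for *Rc3h1* (0.965), *Xiap* for *Rc3h2* (0.964) and *Nr3c1* for *Arid5a* (0.962). Among the members themselves r was 0.97 between *Zc3h12a* and *Zc3h12c*, -0.94 between *Zc3h12a* and *Zc3h12d*, 0.88 between *Zfp36l1* and *Zfp36l2*, 0.87 between *Rc3h1* and *Rc3h2* and -0.66 between *Zfp36* and *Zfp36l1*.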

How the data were processed

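PolyA RNA of 12 libraries was mapped by the authors to mm10 with HISAT2 as paired-end and unstranded, and counted with featureCounts 1.6.3, per the labels. The program that normalized the counts, the annotation and the gene filter are not given in the sources used here. The deposited values are log2 CPM, in which the authors added 0.5 read before the log2. Whole reads were recovered from them with a largest departure of 0.00103 read.

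Testing was limited to genes that reached 1 CPM in 2 libraries or more (11885 of 12850, with all 9 members among them), and used limma 3.58.1 in R 4.3.3, as a mean for each of the 6 groups with a prior that follows the mean level. Tests were two-sided, with Benjamini-Hochberg adjustment over all tested genes of a contrast. Lengths came from GENCODE on GRCm38, for 98.0% of listed genes. Shares were tested by exact permutation of libraries. Other tools were Python 3.11.15, pandas 2.3.3, scipy 1.17.1 and matplotlib 3.10.9. The members and lists were chosen with earlier results of these data known. Named were all members, from each list up to 2 rises and 2 falls at 4 hr, list genes past the threshold between genotypes, and the most similar genes; *Upf1* was named after its value was seen. A gene that this rule names is not reported here. Alternatives were other filters, scalings, priors, weights, a replicate block and each library left out. Intervals come from the spread between libraries, and a floor of 3 reads covers counting error only.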

Additional observations from a re-analysis of the deposited data

How the results depend on the processing

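Over all alternatives run, limma called 7 to 9 members at 4 hr against 0 hr, 7 to 8 at 8 hr against 0 hr, 5 to 8 at 8 hr against 4 hr and 0 in each contrast of the genotypes. Without the normalization factor *Zc3h12c* between genotypes at 0 hr was -0.0249 on the log2 scale, and -0.00979 to 0.17 without single libraries. Other genotype differences that changed sign without a library ran at 4 hr -0.19 to 0.0241 for *Zc3h12a*, -0.53 to 0.0593 for *Zc3h12c*, -0.19 to 0.54 for *Zc3h12d*, -0.47 to 0.00110 for *Zfp36l1*, -0.59 to 0.00145 for *Zfp36l2*, -0.47 to 0.0495 for *Rc3h1*, -0.47 to 0.29 for *Rc3h2*, and for *Zfp36l1* -0.27 to 0.62 at 8 hr, -0.00580 to 0.89 in the interaction at 8 hr and -0.00964 to 0.44 in LPS 8 hr against 4 hr. Share differences without single libraries, where 4 libraries against 3 cannot pass the threshold, ran in percentage points 24.3 to 25.7 (4 hr against 0 hr), 10.6 to 11.7 (8 hr against 0 hr), -14.7 to -13.3 (8 hr against 4 hr) for *Zfp36*, 8.76 to 11.0 (4 hr against 0 hr), -0.530 to 1.75 (8 hr against 0 hr), -10.6 to -8.69 (8 hr against 4 hr) for *Zc3h12a*, -0.240 to 1.38 (4 hr against 0 hr), -4.55 to -3.08 (8 hr against 0 hr), -5.04 to -3.63 (8 hr against 4 hr) for *Rc3h1*. In reads without division by length the *Zc3h12a* share differed by 4.99 points at 4 hr and -4.27 at 8 hr, and with the longest transcript 2 members changed place in the order of levels at 0 hr and 4 at 8 hr, since lengths differ. Other causes were not tested. *Zc3h12d* and *Zfp36l1* rest on as few as 32 and 25 reads in a library, and the median SE of a genotype difference at 1 time was 0.18.

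Nothing in the sources used here says whether the replicate numbers pair the samples. Correlations of same-numbered deviations ran from -0.36 to 0.76 within a genotype and from -0.75 to 0.40 between genotypes, which cannot decide it. With the replicate block limma called 7 members at 4 hr, 7 at 8 hr and 6 between 4 and 8 hr, and 6462, 5259 and 2766 of all genes. The 2 calls not made were those of *Rc3h1*, with an adjusted p of 0.0502 and 0.0658, and no other call of a member changed.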
